A study of Homo sapiens with 31 samples.

Results

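The comparison described here is between 2 libraries labelled NC 4 h and 2 labelled NC 0 h, 4 of the 31 samples of the series, chosen by their titles alone. They belong to a set of 20 RNA-seq libraries in which cells were treated with actinomycin D, a drug that blocks transcription, for 0, 2, 4, 6 or 8 h. The labels name the cells as PANC-1, a line grown from a human pancreatic carcinoma, and the 4 libraries carry the genotype WT. The other libraries of the set are the 6 labelled NC at 2, 6 and 8 h and 10 labelled KO, with a KHSRP knockout, at the same 5 times. The study's design text gives the effect of KHSRP, an RNA-binding protein, on transcript lifetime as the purpose of this set. Whether the 2 replicates of a group were grown separately is not in the labels, and each p-value reflects no more than the variation from library to library, part of which may be technical. They also do not say whether the 0 h cells received a vehicle, or how many clones the KO label covers.

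Actinomycin D binds DNA and stops RNA polymerases, so transcripts that are no longer made disappear at the pace of their own decay. Transcripts of immediate-early genes, which many stimuli switch on within minutes, are among the shortest-lived in mammalian cells, and many carry AU-rich elements that recruit decay factors such as KHSRP. Housekeeping transcripts such as those of ribosomal proteins and glycolytic enzymes are long-lived. After hours without transcription, short-lived transcripts are therefore known to make up a smaller share of the remaining RNA and long-lived ones a larger share. In the libraries labelled NC 4 h the shares lay the other way round, so the time labels of these libraries may be wrong. All times below are labels, and "4 h" and "0 h" mean the libraries that carry those labels.

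The 20 libraries held 19177934 to 25768060 counts. The 2 labelled NC 4 h held 19645092 and 22413949, and the 2 labelled NC 0 h held 23215965 and 22253494. More genes had at least 1 count at 4 h, 19782 and 19978, than at 0 h, 19002 and 18925. The 10 most abundant genes took 3.81% and 3.73% of counts at 4 h and 4.95% and 4.99% at 0 h. Counts of the listed genes made up 43.4% and 43.1% of the authors' RPM denominator at 4 h, the lowest shares in the set, and 46.1% in each 0 h library, so a larger part of that denominator at 4 h lay outside the listed genes. The part of these library differences in the results below was not tested. Of the markers of epithelium, KRT8, KRT18 and KRT7, the keratins of simple and ductal epithelia, were abundant, at 11972 to 46603 counts per library. KRT19, another ductal keratin, had at most 15 counts and EPCAM, an epithelial adhesion molecule, at most 22. CDKN2A, a tumour suppressor gene deleted in PANC-1, gave 2728 to 4779 counts, so the label of the cell line may also be wrong. Markers of other cell types were low or mixed. The fibroblast markers PDGFRB (412 to 592 counts) and COL1A1 (171 to 221), the macrophage marker CD68 (212 to 277) and the endothelial CDH5 (49 to 83) were detected, and the summed fibroblast list was 34.2 to 35.8 plain CPM (relative to all listed counts, with no TMM scaling) at 0 h and 31.4 to 31.7 at 4 h. The immune genes CD3E, LYZ and MS4A1, the endothelial KDR, TEK and CLDN5, the acinar PRSS1 and the endocrine INS and GCG had no counts, and the summed level of the 9 immune markers, 3 of them at 0, was 12.8 to 13.8 plain CPM at 0 h and 11.9 to 13.3 at 4 h. The summed endocrine list, with 5 of 7 markers at 0, moved with the comparison, through ISL1, a homeobox factor with 13 and 2 counts at 0 h and 115 and 109 at 4 h. The part of these markers in the results was not tested.

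Short-lived transcripts were far more abundant at 4 h. Levels are given as CPM after TMM scaling, the library scaling of edgeR, and changes as log2 of 4 h over 0 h with a standard error (SE) and a p-value adjusted over 17715 tested genes. FOS, an AP-1 transcription factor and a textbook immediate-early gene, stood at 7.22 and 6.38 CPM in the 0 h libraries and at 538 and 516 CPM in the 4 h libraries. Its change was 6.27 on the log2 scale, a 77.3-fold rise (SE 0.11, adjusted p = 2.56e-36). The 2 groups did not overlap, and both 4 h libraries were high. MYC, a transcription factor whose transcript turns over rapidly, stood at 25.4 and 26.2 CPM at 0 h and 306 and 286 CPM at 4 h (log2 change 3.52, 11.5-fold, SE 0.10, adjusted p = 2.42e-28). MCL1, a short-lived survival protein of the BCL2 family, stood at 117 and 112 CPM at 0 h and 371 and 369 CPM at 4 h (1.69, 3.23-fold, SE 0.05, adjusted p = 8.14e-28). Replicates lay close together for all 3 genes, and the 4 h libraries stood apart from both 0 h libraries. Per length, FOS went from a mean of 1.43 to 117 in the authors' RPKM, while GAPDH, a glycolytic enzyme, went from 959 to 619.

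**Figure D1:**
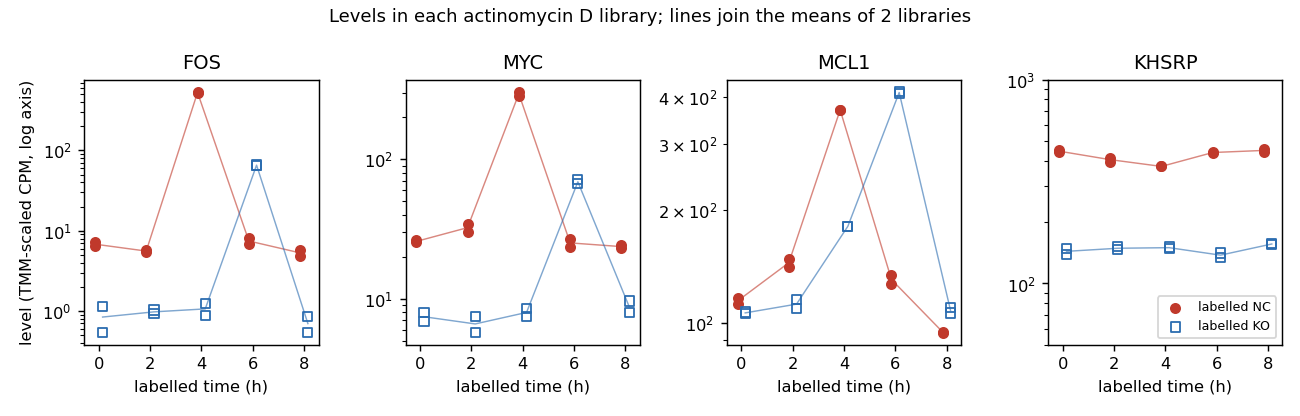
Levels of FOS, MYC, MCL1 and KHSRP (TMM-scaled CPM, log axis) against the labelled hours of actinomycin D, with 1 point per library (filled, labelled NC; open, labelled KO) and lines through the means of 2 libraries. Among the NC labels FOS, MYC and MCL1 peak at 4 h, where FOS reaches 538 and 516 CPM, and among the KO labels they peak at 6 h, where FOS reaches 65.4 and 65.7 CPM.

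None of the other NC times held such levels, as the plot of levels by labelled time shows. FOS was at 4.79 to 8.05 CPM in the 6 libraries labelled 2, 6 and 8 h, and MYC at 23.0 to 34.6 CPM. MCL1 was at 149 and 141 CPM at 2 h, 127 and 134 CPM at 6 h and 94.3 and 94.9 CPM at 8 h. Each of the 3 genes was higher at 4 h than at each other NC time in edgeR's test, the highest adjusted p being that of MCL1 against 2 h (1.53e-24). KHSRP itself was at 439 and 453 CPM at 0 h and 375 and 376 CPM at 4 h, 1.19-fold lower (log2 change -0.25, SE 0.04, adjusted p = 3.88e-06). With plain library totals it did not pass (-0.08, adjusted p = 0.145), and with libraries scaled to ribosomal protein genes it was higher instead (0.38, adjusted p = 8.7e-10), so its direction depends on the scaling. The tables place these genes, in hg19 coordinates, at chr14:75745531-75748933 on the plus strand (FOS), chr8:128747680-128755197 on the plus strand (MYC), chr1:150547034-150552086 on the minus strand (MCL1) and chr19:6413113-6424822 on the minus strand (KHSRP).

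Across all genes, 4802 were higher at 4 h than at 0 h (27.1% of those tested) and 4318 lower (24.4%), so that 51.5% passed in either direction, and the 2 directions differed in size. Both 4 h libraries lay above both 0 h libraries for 37.1% of tested genes and below them for 33.9%. At least 1 on the log2 scale separated the times for 2684 higher genes (15.2%) and 229 lower genes (1.29%). At 2 or more these counts were 1035 (5.84%) and 88 (0.497%). Among the 10012 genes of at least 10 CPM in the higher group, 1697 were higher and 28 lower by at least 1. By at least 2, 505 were higher and 1 lower, the noncoding RNA RN7SK. Rises and falls were thus similar in number, and the large changes were mostly rises, as in the plot of change against level. A split of this kind depends on what is held constant: with size factors of DESeq2 it was 4338 higher and 5094 lower (median change of all genes -0.04), with plain library totals 5769 and 2985 (median 0.17), with libraries scaled to ribosomal protein genes 9857 and 204 (0.62), and on the authors' molecule scale 5434 and 1250 of 13988 genes (0.31). Changes are therefore relative to the other genes, and fewer cells or less RNA per cell cannot be told apart from them.

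**Figure D2:**
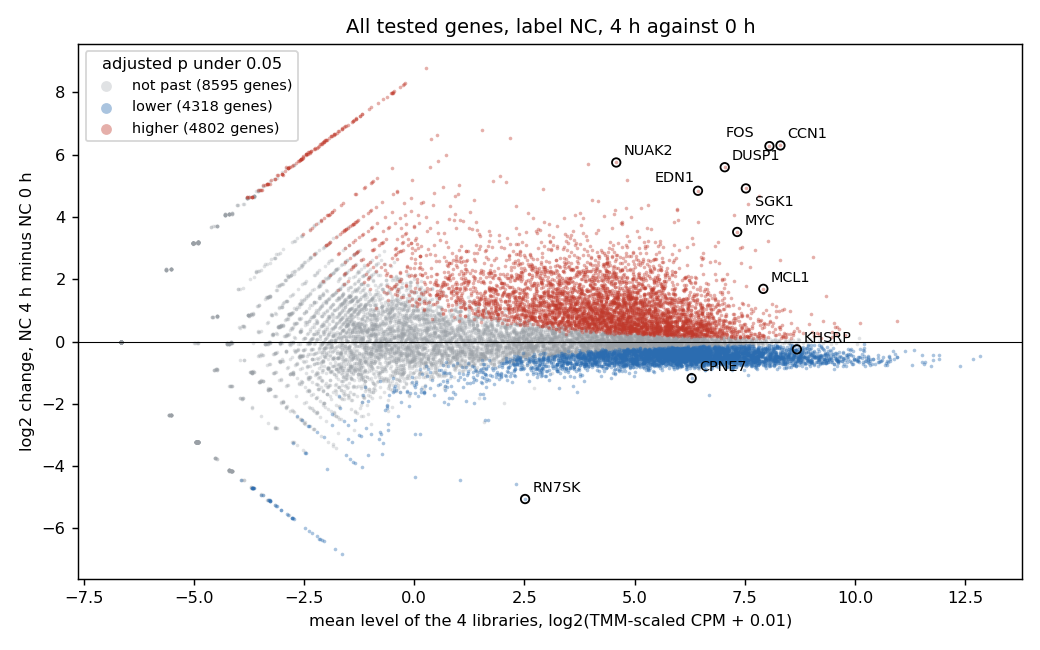
Log2 change from NC 0 h to NC 4 h against the mean level of the 4 libraries (log2 of TMM-scaled CPM plus 0.01), with 1 point per tested gene coloured by its call at an adjusted p under 0.05. At high levels the 4318 lower genes form a shallow band below 0, and the rises of FOS, CCN1, DUSP1, SGK1, EDN1, NUAK2 and MYC stand above it, with RN7SK at -5.05.

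The 12 steepest rises among genes of at least 10 CPM ran from 23.0-fold to 78.5-fold. CCN1, a secreted matricellular protein and a known target of YAP and serum response factor, stood at 8.61 and 7.32 CPM at 0 h and 637 and 615 CPM at 4 h (log2 change 6.29, SE 0.08, adjusted p = 2.03e-40). Its relative CCN2 stood at 17.1 and 17.3 CPM and then 438 and 439 CPM (4.67, SE 0.08, adjusted p = 1.13e-36). Both proteins are read in many laboratories as reporters of YAP activity. DUSP1, a phosphatase that inactivates MAP kinases, went from 5.11 and 5.59 to 267 and 251 CPM (5.60, SE 0.18, adjusted p = 5.74e-18). NUAK2, a stress-responsive kinase, went from 0.986 and 0.751 to 48.3 and 45.9 CPM, and BAMBI, a decoy receptor of TGF-beta signalling, from 0.583 and 0.563 to 29.0 and 31.4 CPM. In each of these genes both 4 h libraries lay far above both 0 h libraries. SGK1, a kinase induced by serum and glucocorticoids, went from 11.7 and 11.9 to 358 and 355 CPM, and EDN1, which encodes the vasoconstrictor endothelin, from 5.96 and 5.73 to 162 and 173 CPM. The others were FOS, CSRNP1, TENT5B, HPS6 and RGS2, with log2 changes of 4.52 to 6.27. All 12 were also higher at 4 h than at each of the 3 other NC times. Of all tested genes 15.4% were higher than at each other NC time, and of those higher than at 0 h 56.9% were. These contrasts share the 4 h libraries by which the 12 were picked, so this is a description only.

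Promoter letters are shown for 4 of the steepest or best-known early genes, because these promoters are where stimulus-responsive factors are known to act. Each is the 200 bases before the annotated start in RefSeq's table (GRCh38.p14), 5′ to 3′ on the strand of the gene, with motif matches in capitals. The pieces lie at chr14:75278628-75278827 (FOS, plus strand), chr5:138465279-138465478 (EGR1, plus), chr6:131951373-131951572 (CCN2, minus) and chr5:172771196-172771395 (DUSP1, minus). CCN1 is named only.
FOS: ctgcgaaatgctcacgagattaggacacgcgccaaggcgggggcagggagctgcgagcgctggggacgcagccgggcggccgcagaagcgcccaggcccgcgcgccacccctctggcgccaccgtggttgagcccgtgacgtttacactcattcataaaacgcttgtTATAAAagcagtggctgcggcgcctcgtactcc
EGR1: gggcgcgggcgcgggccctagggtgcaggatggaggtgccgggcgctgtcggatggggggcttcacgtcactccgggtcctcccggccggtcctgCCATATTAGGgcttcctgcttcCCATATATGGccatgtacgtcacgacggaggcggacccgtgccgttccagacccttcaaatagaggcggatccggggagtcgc
CCN2: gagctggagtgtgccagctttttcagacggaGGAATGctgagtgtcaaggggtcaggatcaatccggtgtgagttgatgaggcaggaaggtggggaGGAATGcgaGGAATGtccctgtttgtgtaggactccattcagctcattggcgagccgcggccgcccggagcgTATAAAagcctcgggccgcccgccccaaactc
DUSP1: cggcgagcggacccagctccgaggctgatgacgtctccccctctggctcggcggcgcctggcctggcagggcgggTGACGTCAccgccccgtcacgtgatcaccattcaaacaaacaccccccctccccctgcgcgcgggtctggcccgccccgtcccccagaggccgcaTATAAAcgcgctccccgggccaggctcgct

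The capitals mark, on either strand, TATAAA (the TATA box), TGACGTCA (the cyclic AMP response element), TGANTCA (the AP-1 site), the CArG box of serum response factor and GGAATG (the TEAD motif, added after values had been seen). EGR1 held 2 CArG boxes, 105 and 83 bases before the start, CCN2 3 GGAATG copies at 169, 104 and 95 bases, and DUSP1 a TGACGTCA at 125 bases. TATAAA lay 33, 32 and 30 bases before the starts of FOS, CCN2 and DUSP1. Over windows from 250 bases before to 50 after the start, TATAAA was present in 41 of 397 genes that were higher by at least 2 (10.3%), in 399 of all 8111 matched genes of at least 10 CPM (4.92%) and in 11.95% of all 27305 promoters in the table. TGACGTCA stood at 4.79%, 3.63% and 1.98% of the same sets, TGANTCA at 5.29%, 4.02% and 7.76%, the CArG box at 0.756%, 1.04% and 1.29%, and GGAATG at 8.56%, 10.6% and 14.05%. All 4 promoters printed above hold matches, and EGR1 is not among the 12 steepest rises. Among those rises BAMBI, CSRNP1, EDN1, HPS6 and RGS2 held none of these motifs in the same window. The early genes IER2 and ATF3 held none either. Of the 11 steepest rises with a matched promoter, 0 held a CArG box. These shares describe letters in a window, and no enrichment was tested.

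The other genes are described by lists that were chosen with earlier results of these data in view, so a list's direction is not independent evidence. The background for each count is 27.1% higher and 24.4% lower among all tested genes. Among protein-coding genes of at least 10 CPM it is 36.5% higher and 39.45% lower. Immediate-early genes were higher as a group: 26 of 27 rose and none fell, with a median log2 change of 2.47 against 0 over all tested genes. EGR1, a zinc finger factor whose promoter is printed above, was at 16.3 and 17.8 CPM at 0 h and 289 and 287 CPM at 4 h (4.08, SE 0.11). The AP-1 subunits FOSB, JUN, JUNB, FOSL1 and FOSL2 rose by 2.44 to 3.89, and JUN went from 12.6 and 17.4 to 121 and 106 CPM. Nuclear receptors of the NR4A family rose by 3.06 (NR4A1), 2.66 (NR4A3) and 2.18 (NR4A2). SRF, the factor that drives many of these promoters, rose by 0.39, from 71.0 and 73.0 to 95.8 and 93.4 CPM. EGR2 did not pass the test and was below 1 CPM in all 4 libraries. EGR3 had no counts at 0 h and 10 and 2 at 4 h, and its call was lost without either 0 h library or without 4 h replicate 1 (adjusted p of 0.138 to 0.272).

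Feedback inhibitors of the same signalling pathways rose with them. Of 17 dual-specificity phosphatases and Sprouty proteins that restrain ERK signalling, 16 rose and none fell (median 2.47). DUSP5, a nuclear ERK phosphatase, went from 1.12 and 1.41 to 18.8 and 20.8 CPM, and DUSP4 from 16.5 and 16.2 to 146 and 141 CPM. SPRY2 and SPRY4, Sprouty inhibitors of receptor signalling, rose by 3.63 and 2.47, and SPRED3 did not pass (0.25). All 12 tested KLF factors rose (median 2.21). KLF4, a zinc finger factor of epithelia, went from 11.6 and 10.9 to 154 and 168 CPM (3.84, SE 0.13, adjusted p = 8.24e-26), and KLF2, a factor best known from endothelium, from 0.986 and 2.44 to 29.0 and 24.2 CPM. KLF5, an epithelial growth regulator, went from 7.49 and 7.04 to 70.5 and 63.5 CPM, KLF10, an early TGF-beta target, rose by 2.76, and KLF16 had the smallest rise, 0.32. The phosphatase gene DUSP2 went from 0.717 and 1.55 to 15.2 and 15.7 CPM.

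Inflammatory and growth factor pathways moved unevenly. Of 15 NF-kappaB subunits and inhibitors 11 rose and 2 fell (median 1.10), and NFKBIA, the inhibitor IkappaB alpha, went from 1.26 and 1.69 to 26.5 and 24.7 CPM (4.12, SE 0.22). TNFAIP3, a ubiquitin-editing inhibitor, rose by 2.06, and BCL3 and NFKBIE, proteins of the IkappaB family, rose by 2.05 and 1.87, while NFKBIB and TNFAIP2 fell by 0.40 and 0.24. Among 20 tested chemokines, cytokines and growth factors with AU-rich transcripts 9 rose and 2 fell, and the median was 0.21. IL6, a cytokine, had 4 and 6 counts at 0 h and 165 and 211 at 4 h (5.13, SE 0.75, adjusted p = 1.63e-07). CXCL3, a chemokine gene, had no counts at 0 h and 10 and 4 at 4 h, and its relative CXCL2 had 6 and 0 and then 38 and 53. The chemokine gene CXCL8 had 6 counts in each 0 h library and 40 and 46 at 4 h, and VEGFA, the angiogenic growth factor, rose by 1.28. Of the 2 that fell, CXCL1 had counts at 0 h only in replicate 2 and gave no change without it, nor did it pass without either 4 h library (adjusted p of 0.0576 and 0.0744), and EREG fell by 2.69. TNF and CSF2, textbook AU-rich transcripts, had no counts in these 4 libraries, and LIF and PLAUR did not pass (-0.20 and -0.10).

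Developmental and clock feedback genes were also mostly higher. Among TGF-beta feedback genes 11 of 12 rose and 1 fell (median 1.31), with SMAD7, the inhibitory SMAD, at 3.81 and 4.69 CPM at 0 h and 35.4 and 26.8 CPM at 4 h. TGIF1, a corepressor of SMADs, rose by 2.88, and LTBP2, a matrix protein, fell by 0.66. Of 10 ID, HES and Notch feedback genes 6 rose and 1 fell: ID3, an inhibitor of helix-loop-helix factors, went from 5.51 and 6.90 to 128 and 111 CPM, HES1, a Notch-responsive repressor, rose by 3.44, ID1 by 2.33 and HEY2 by 2.20, and HES4 fell by 0.71. The call of HEY2 was lost without 0 h replicate 1 (adjusted p = 0.0912). SKI, a corepressor of SMADs, rose by 1.93. Among 13 clock genes 12 rose (median 1.02), led by BHLHE40, a repressor of the clock, at 8.20 and 7.04 CPM and then 73.1 and 69.1 CPM. PER2 and PER1, period genes of the clock's negative limb, rose by 1.87 and 1.51, and the output factor TEF rose by 1.56. The core factor BMAL1 did not pass (0.42, adjusted p = 0.089).

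**Figure D3:**
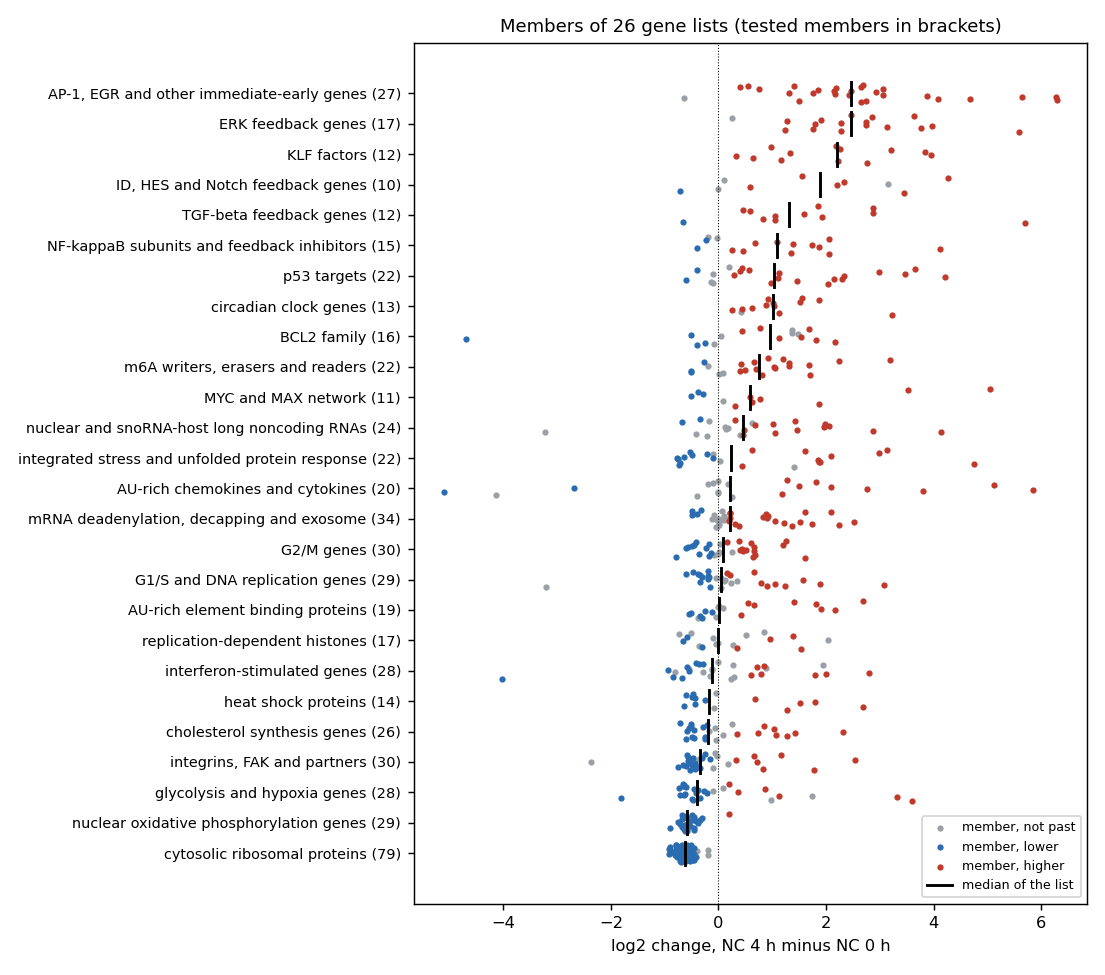
Log2 change from NC 0 h to NC 4 h of each tested member of 26 gene lists (points, coloured by call at an adjusted p under 0.05) with the median of each list (bar). Immediate-early genes and ERK feedback genes lie at the top with medians of 2.47, and ribosomal protein genes form a tight cluster at the bottom with a median of -0.62.

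Survival, p53 and MYC network genes held both directions, as did all tested genes (27.1% higher and 24.4% lower). Among 22 p53 targets 16 rose and 2 fell (median 1.04): PLK2, a polo-like kinase, went from 5.92 and 6.85 to 117 and 121 CPM (4.22, SE 0.14), PPM1D, the phosphatase that switches p53 signalling off, rose by 3.47, and MDM2, the ubiquitin ligase of p53, rose by 1.10. SESN2, a stress sensor upstream of mTORC1, went from 0.897 and 0.939 to 6.30 and 8.35 CPM, and TP53INP1, with 0 and 1 counts at 0 h, had 10 and 6 at 4 h and lost its call without 0 h replicate 1 (adjusted p = 0.0575). FDXR and TP53I3, enzymes of mitochondrial and quinone metabolism, fell by 0.60 and 0.39. In the BCL2 family 7 of 16 rose and 4 fell. Those that rose included the pro-survival MCL1 and BCL2L1 (1.13) and the pro-death BBC3 (2.17) and BCL2L11 (1.53). BID, BAD and BAX, pro-death members, fell by 0.52, 0.40 and 0.25. BCL2A1, the fourth that fell, had 4 and 2 counts at 0 h and none at 4 h, and its call was lost without 0 h replicate 1 or either 4 h library (adjusted p of 0.0917 to 0.125). In the MYC and MAX network 7 of 11 rose and 3 fell, with MGA, a repressive partner of MAX, higher by 1.86 and MXD3, another repressive partner, lower by 0.52. MNT, also a repressive partner, rose by 0.76 (0.48 without 4 h replicate 2), and MYCL had no counts at 0 h and 4 in each 4 h library, a call lost without any 1 of the 4 libraries (adjusted p of 0.071 to 0.15).

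Stress genes held both directions, beside 27.1% higher and 24.4% lower among all tested genes. Of 22 integrated stress and unfolded protein response genes 10 rose and 9 fell. XBP1, the spliced factor of the unfolded protein response, went from 9.37 and 10.1 to 86.3 and 85.2 CPM (3.14, SE 0.13, adjusted p = 2.65e-23), and PPP1R15A and DDIT3, regulators downstream of ATF4, rose by 2.10 and 1.89. CHAC1, a glutathione-degrading enzyme induced by ATF4, had 0 and 4 counts at 0 h and 45 and 76 at 4 h. PDIA4, HSP90B1 and CALR, folding proteins of the endoplasmic reticulum, fell by 0.77, 0.76 and 0.74. Of 14 heat shock genes 5 rose and 7 fell. HSPA8, an abundant cytosolic chaperone, went from 1506 and 1541 to 2423 and 2440.3 CPM (0.68, SE 0.03). DNAJB1, an inducible co-chaperone, went from 25.3 and 25.1 to 160 and 163 CPM, and HSPA1B and HSPA1A, inducible HSP70 genes that share most of their sequence and may share reads, rose by 1.80 and 1.52. BAG3, a co-chaperone of HSP70, rose by 1.27. HSP90AA1, another abundant chaperone, was at 3748 and 3802 CPM at 0 h and 2382 and 2430.0 CPM at 4 h (-0.65, SE 0.03). The median of the heat shock list was -0.17 and changed sign with the scaling, at 0.003 with plain totals, 0.46 with ribosomal protein scaling and 0.14 on the molecule scale.

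Metabolic lists held more falls than rises, beside 27.1% higher and 24.4% lower among all tested genes. Among 28 glycolysis and hypoxia genes 6 rose and 18 fell (median -0.40). GAPDH was at 3770 and 3739 CPM at 0 h and 2312 and 2272 CPM at 4 h (-0.71, SE 0.03, adjusted p = 2.96e-24), and the enzymes ENO1, PKM, PGK1, TPI1 and PGAM1 fell by 0.64 to 0.66. ADM, a hypoxia-induced peptide hormone, and DDIT4, an inhibitor of mTORC1, went the other way, ADM from 6.46 and 6.05 to 75.6 and 76.8 CPM. EGLN1, the oxygen sensor of the hypoxia pathway, rose by 1.13, and CA9, a carbonic anhydrase induced by hypoxia, fell from 68 and 56 to 6 and 31 counts, which did not pass without 4 h replicate 1 (adjusted p = 0.0649). In cholesterol synthesis and uptake 8 of 26 rose and 13 fell. INSIG1, a feedback regulator of sterol synthesis, rose by 1.43 and the enzyme gene HSD17B7 by 1.08, while the enzymes DHCR7 and LSS fell by 0.61 and 0.58. With ribosomal protein scaling the medians of these 2 lists were above 0 (0.23 and 0.44), and on the molecule scale they were -0.12 and 0.12.

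Cell cycle lists had both directions too. The G1/S shares lay near those of protein-coding genes of at least 10 CPM (36.5% higher and 39.45% lower). In the G1/S list 10 of 29 rose and 11 fell: CDC25A, an unstable phosphatase that starts S phase, went from 6.86 and 9.11 to 65.8 and 68.4 CPM (3.07, SE 0.17), CDT1, E2F3 and CCNE2 rose by 1.90, 1.58 and 1.23, and RPA1 and TYMS fell by 0.60 and 0.47. Of 30 G2/M genes 14 rose, led by AURKA, a spindle kinase (47.2 and 46.7 to 140 and 146 CPM), with TTK and KIF23, a checkpoint kinase and a kinesin, higher by 1.26 and 1.20, and 11 fell, with BIRC5 and FOXM1 lower by 0.78 and 0.61. With ribosomal protein scaling 27 of the G1/S genes were higher and none lower, and 26 and 1 of the G2/M genes, so the falls in both lists depend on the scaling. CCND1, MKI67 and CCNB1 did not pass, with changes of 0.04, 0.02 and -0.01. Among 17 tested genes of the replication-dependent histone list 4 rose and 3 fell, shares no larger than among all tested genes. H2BC8 and H2BC21 rose by 1.38 and 0.97, and H2BC12 fell by 0.65. The call of H2BC8 was lost without either 0 h library or without 4 h replicate 1 (adjusted p of 0.0761 to 0.173). Among 28 interferon-stimulated genes 7 rose and 9 fell, near the 27.1% and 24.4% of all tested genes, and with ribosomal protein scaling 13 were higher and 1 lower. The transcription factor IRF1 went from 1.34 and 1.13 to 9.88 and 7.44 CPM, IFIT5 and IFIT2 rose by 2.00 and 1.79, and IFI27 had 4 and 31 counts at 0 h and 2 and 0 at 4 h. IFI27 did not pass without 0 h replicate 2 (adjusted p = 0.387) or 4 h replicate 2 (0.0995).

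Genes that control RNA stability changed in both directions, beside 27.1% higher and 24.4% lower among all tested genes. Of 22 m6A writers, erasers and readers 16 rose and 3 fell (median 0.75). YTHDF2, the reader that recruits deadenylases to methylated transcripts, was at 9.55 and 7.98 CPM at 0 h and 82.3 and 78.0 CPM at 4 h (3.19, SE 0.12, adjusted p = 9e-25), and its relatives YTHDF1 and YTHDF3 rose by 2.25 and 1.20. WTAP and METTL14, subunits of the methyltransferase, rose by 1.31 and 1.05, CBLL1 and RBM15B, further subunits, rose by 1.71 and 1.68, the catalytic METTL3 did not pass (-0.19), and HNRNPA2B1 and HNRNPC fell by 0.51 and 0.52. Among 34 deadenylation, decapping and exosome genes 19 rose and 4 fell (median 0.21): TOB1, an adaptor of the CCR4-NOT deadenylase, went from 23.0 in each 0 h library to 96.0 and 101 CPM, the decapping cofactor DCP1B rose by 2.52, the CCR4-NOT proteins CNOT4 and CNOT6L by 2.23 and 1.74, and the helicase UPF1 fell by 0.50. Of 19 AU-rich element binding proteins 8 rose and 6 fell. ZFP36L2 and PUM2, which promote decay of their targets, rose by 2.70 and 1.91. ZC3H12A, an endonuclease that cuts inflammatory transcripts, rose by 1.81. ELAVL1, the stabilising protein HuR, fell by 0.30, and HNRNPA1 fell by 0.55. With ribosomal protein scaling 17 of the 19 were higher and none lower, so the falls in this list depend on the scaling.

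A list of long noncoding RNAs, some nuclear and some hosts of small nucleolar RNAs, held more rises than falls. Of 24 tested members 13 rose, 2 fell and 9 did not pass (median 0.46). MIR17HG, host of the miR-17 cluster, had 14 counts in each 0 h library and 232 and 288 at 4 h (4.14, SE 0.57), and MIR22HG rose by 2.88. SNHG15 and SNHG3, small nucleolar RNA hosts, rose by 2.06 and 1.98. NORAD, an abundant long noncoding RNA, went from 346 and 343 to 930.4 and 958 CPM, and MALAT1, a nuclear speckle RNA, from 226 and 212 to 439 and 469 CPM. MALAT1 also stood at 400.1 and 353 CPM in the libraries labelled 8 h, above the 124 to 155 CPM of the 2 h and 6 h libraries. ZFAS1 and SNHG6, hosts of small nucleolar RNAs, fell by 0.35 and 0.68.

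Genes of the most abundant and long-lived transcripts were lower at 4 h. Of 79 cytosolic ribosomal protein genes 76 fell and none rose, with a median change of -0.62 and RPS21 and RPL39 lowest at -0.92, followed by RPS28 (-0.90) and RPLP1 (-0.89). The other 3, RPL36A and RPS10 among them, did not pass and had levels below 3 CPM in all 4 libraries. RPLP0, of the ribosomal stalk, was at 2105 and 2166 CPM at 0 h and 1266 and 1245 CPM at 4 h (-0.77, SE 0.03, adjusted p = 1.87e-23), and RPS21 at 192 and 193 and then 105 and 98.4 CPM. Both 0 h libraries were high and both 4 h libraries low in each gene. Of 29 nuclear genes of oxidative phosphorylation 28 fell (median -0.59), led by the cytochrome oxidase subunit COX5B (182 and 204 to 106 and 102 CPM), and UQCRFS1 rose by 0.19. NDUFB8 and NDUFA4, annotated as complex I subunits, and UQCRC1, of complex III, fell by 0.75, 0.72 and 0.68. The median of the oxidative phosphorylation list was 0.04 with ribosomal protein scaling and -0.31 on the molecule scale. That of ribosomal proteins was -0.45 with plain totals, where 75 were lower and 0 higher. On the molecule scale it was -0.36, with 19 lower and 0 higher. With ribosomal protein scaling it was 0.009, but that scaling holds these same genes near 0 by design, so this value tests nothing. The falls are given relative to the other genes.

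Integrins and partners of the focal adhesion kinase, which the title of the series names, were mostly lower: 17 of 30 fell and 7 rose (median -0.35). ITGB1, the common beta subunit, was at 1416 and 1451 CPM at 0 h and 894 and 921 CPM at 4 h (-0.66, SE 0.03), ITGA3 fell by 0.76 and PTK2, the kinase itself, by 0.17. PIK3R1, the regulatory subunit of PI3 kinase, and BCAR1, an adhesion docking protein, rose by 2.53 and 1.78, and the kinase SRC and the adaptor CRK by 1.16 and 0.83. The median was 0.28 with ribosomal protein scaling and -0.03 on the molecule scale.

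Falls were traced in the same way, and the 12 steepest at 10 CPM or more were smaller than the steepest rises, with one exception. RN7SK, the noncoding RNA that holds back the elongation factor P-TEFb, had 219 and 264 counts at 0 h and 4 and 11 at 4 h (-5.05, SE 0.38, adjusted p = 9.82e-15). The RNA of these libraries was selected for polyA tails, and the part of that selection in the RN7SK counts was not tested. The RN7SK fall is therefore a change in counts. The level of RN7SK varied at the other labels, from 0.792 and 0.782 CPM at 2 h to 34.4 and 33.9 CPM at 8 h. It did not pass against 2 h (adjusted p = 0.0531). The other 11 fell 2.16-fold to 3.28-fold: LOC110262331, LOC110467533, LIME1, CCDC78, AMH, LOC100288162, CPNE7, PGGHG, BIRC7, GIPR and HNRNPA1P10. CPNE7, a calcium-dependent phospholipid-binding protein, was the most abundant of those with a known protein, at 106 and 112 CPM at 0 h and 47.0 and 49.3 CPM at 4 h (-1.17, SE 0.07). HNRNPA1P10 is a processed copy of HNRNPA1, so its counts may hold reads of its parent and are uncertain.

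The distance of the 4 h libraries from the other NC labels was not the same. Against 2 h, 3028 genes were higher at 4 h and 2871 lower. Against 6 h these counts were 4279 and 3965, and against 8 h 5096 and 4567, beside 4802 and 4318 against 0 h. All these contrasts share the 4 h libraries. The median change of the ribosomal protein list was -0.30 against 2 h, -0.52 against 6 h, -0.62 against 0 h and -0.79 against 8 h. That of the m6A list was 0.34, 0.52, 0.75 and 0.90 in the same order. YTHDF2 lay at 33.7 and 34.9 CPM at 2 h, 14.9 in each 6 h library and 9.49 and 12.02 CPM at 8 h, so the 2 h libraries were second to the 4 h ones. In all, 2734 genes (15.4%), 56.9% of those higher than at 0 h, were higher than at each other NC time, and 2447 (13.8%), 56.7% of those lower, were lower than at each.

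Between the same labels the KO libraries changed less, and some of the same genes rose there too. MCL1 was at 106 and 107 CPM at KO 0 h and 181 and 181 CPM at KO 4 h (0.77, SE 0.05, adjusted p = 3.66e-15), and CCN1 at 94.9 and 84.2 and then 281 and 284 CPM (1.66, SE 0.06, adjusted p = 2.51e-23). CSRNP1, SGK1, TENT5B, CCN2, HPS6 and RGS2 also rose under the KO label, by 0.60 (CCN2) to 2.27 (RGS2). The KO median of the immediate-early list was 0.60, that of the KLF list 0.86 and that of ribosomal proteins -0.38. FOS and MYC did not pass there (0.32 and 0.10). FOS was at 1.15 and 0.537 CPM at KO 0 h and 0.874 and 1.25 CPM at KO 4 h, and MYC at 8.01 and 6.87 and then 8.48 and 7.51 CPM. The NC change exceeded the KO change for FOS by 5.96 (adjusted p = 5.59e-14), for MYC by 3.42 (1.11e-18) and for MCL1 by 0.92 (1.73e-13), in edgeR's test of the difference. Over all genes the NC change was above the KO change for 2893 genes (16.3%) and below it for 1900 (10.7%). On the authors' molecule scale these counts were 8798 and 22. Of the 12 steepest rises, which were picked by their change under the NC label, 11 rose more under that label. RGS2, a regulator of G protein signalling, did not pass (2.25, adjusted p = 0.069). Among KO labels FOS, MYC and MCL1 were high at 6 h, MYC at 66.9 and 71.3 CPM, and MCL1 at 410 and 414 CPM, so the same genes were high at a different label. These are differences between labels, and the part of KHSRP in them was not tested.

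Transcript features differed between the genes that rose and those that fell. Genes of at least 10 CPM were cut into 4 equal groups by exonic length. In the shortest, with exons of 83 to 2416 bases in total, 21.6% were higher and 56.3% lower. In the longest, of 6142 bases or more, 48.2% were higher and 26.6% lower. Across 10012 genes Spearman's rho between log2 change and exonic length was 0.26, a description over genes that share the same 4 libraries. Steep rises were more frequent among genes of few exons, though most lay in genes with 5 blocks or more: 42.8% of 285 genes with a single exon block were higher by at least 1, against 11.6% of 4612 genes with more than 10 blocks. In number these were 122 genes with 1 block, 437 with 2 to 4, 537 with 5 to 10 and 536 with more. HPS6, a subunit of a complex that makes lysosome-related organelles and the only single-block gene among the 12 steepest rises, went from 1.26 and 1.46 to 30.6 and 32.1 CPM. Pseudogenes were mostly lower, 70 of 95, and their counts may include reads of their parent genes.

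**Figure D4:**
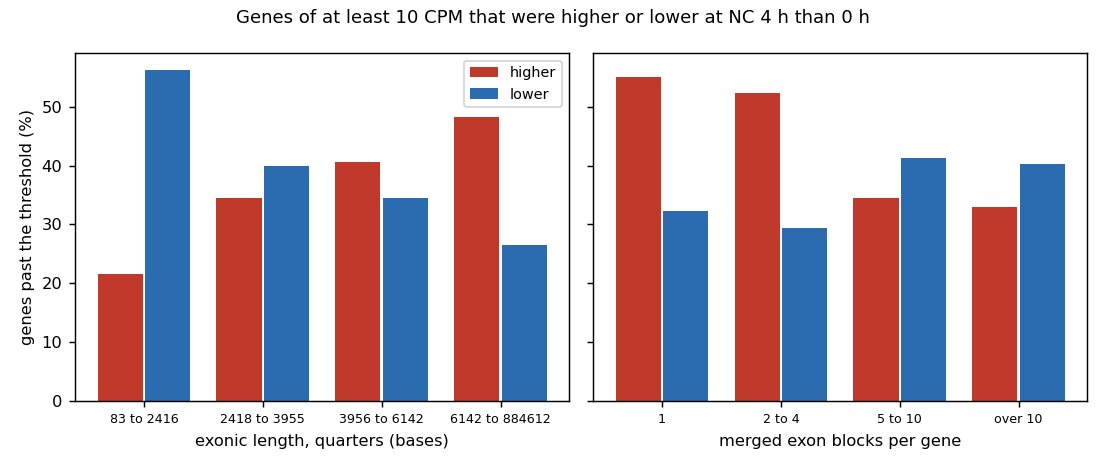
Percent of genes of at least 10 CPM that were higher (red) or lower (blue) at NC 4 h than at NC 0 h, by 4 equal groups of exonic length in bases (left) and by number of merged exon blocks (right). The share of higher genes climbs from 21.6% in the shortest to 48.2% in the longest group, and is 55.1% for single-block genes against 33.0% for those with more than 10 blocks.

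Small nucleolar RNAs guide the modification of ribosomal RNA and are mostly cut out of introns. Their genes were a further group with higher counts at 4 h, picked out after values had been seen. The RNA was selected for polyA tails, and the part of that selection in these counts was not tested. The values below are therefore counts at these genes, not levels of the mature small RNAs. Among all tested genes 10 had no counts in either 0 h library and at least 1 CPM in both 4 h libraries. All but MIR7-1 and RN7SL81P were small nucleolar RNA genes, while no gene showed the opposite. The summed level of 575 listed small nucleolar and Cajal body RNA genes was 107 and 111.5 plain CPM at 0 h and 304 and 318 at 4 h. In the other NC libraries it was 104 to 124, and among KO libraries it was highest at 6 h, at 190.2 and 186. Of 164 such genes that passed the filter on low counts 94 were higher and 3 lower. Many passed through the libraries where they are high, so this excess is partly fixed by the filter and supports nothing. With no filter 74 of 362 were higher, and 4167 genes were higher over all genes of that fit. The 27.1% given above holds for filtered genes only, so it is no background for this count. The count was 58 of 194 without 0 h replicate 1, 58 of 198 without 0 h replicate 2, 71 of 191 and 65 of 186 without 4 h replicate 1 and 2, and 23 of 50 on the molecule scale.

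Most of these genes lie in introns, and their hosts moved in both directions. By the deposited hg19 coordinates 145 of the 164 lay in an intron of a tested gene on the same strand. Of the 86 among them that were higher, 34 had a host that was also higher, 41 a host that was lower and 11 a host that did not pass. ZFAS1, on chromosome 20, fell from 77.0 and 82.0 to 60.1 and 64.9 CPM, while SNORD12B in one of its introns (chr20:47896850-47896952) had no counts at 0 h and 38 and 73 at 4 h. RPSA, which fell by 0.78, holds SNORA62 (chr3:39452545-39452698), with 5 counts in each 0 h library and 67 and 93 at 4 h (3.90, SE 0.83, adjusted p = 9.22e-05). SNORD31 in SNHG1, a host that did not pass (0.12), had 4 counts in each 0 h library and 144 and 201 at 4 h (5.32, SE 0.60, adjusted p = 4.92e-10). Of 43 that passed the filter and lie in introns of 24 ribosomal protein genes 30 were higher, while all 24 hosts were lower. A gene near 0 counts at 0 h cannot be called lower, so the direction of these small RNA genes is a description only. Reads from a small RNA and from the unspliced intron around it cannot be told apart in these tables.

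**Figure D5:**
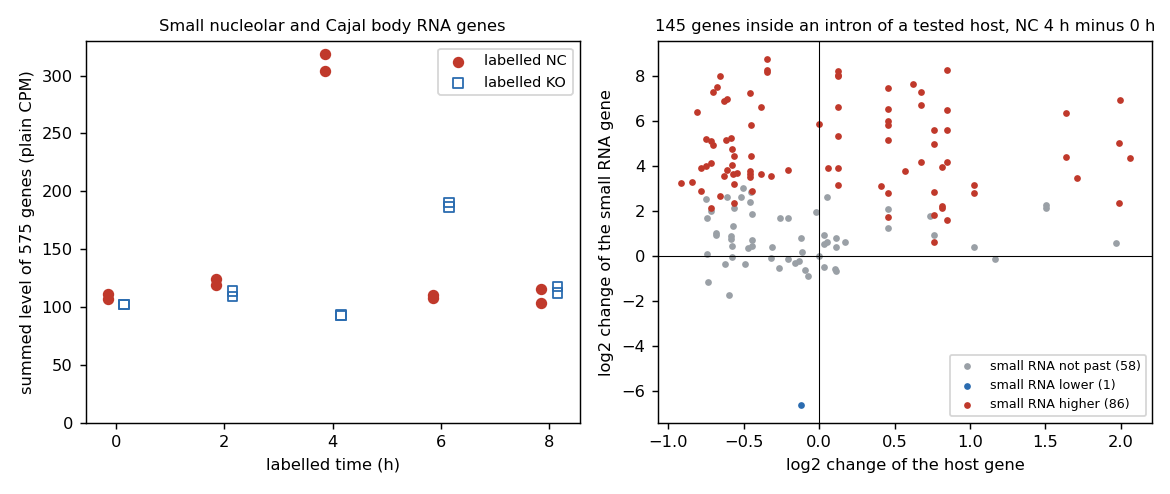
Left, summed plain CPM of 575 small nucleolar and Cajal body RNA genes in each library against the labelled hours (filled, NC; open, KO), where the NC 4 h libraries reach 304 and 318. Right, log2 change from NC 0 h to NC 4 h of 145 genes that lie in an intron against that of the host gene, where 41 of the 86 higher small RNA genes have a host that was lower.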

How the data were processed

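RNA was selected for polyA tails after TRIzol extraction and libraries were prepared with the Hieff NGS Ultima Dual-mode kit, per the labels' protocols. The authors deposited, per library, a table of 43682 genes with read counts, RPM, RPKM, log2 RPKM, a log2 molecule value and its linear form, a signal in molecules, per the file headers. RPM was divided by a total larger than the listed counts, and the deposited log2 molecule value was a straight line of log2 RPKM with its own slope in each library, and no label says what set that line. The submitters' processing notes list Bowtie2, STAR, RSEM, deepTools and the build hg19 with no role for each. Which annotation was counted, and whether by strand, was not given in the sources used.

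Counts of the 20 actinomycin D libraries (19177934 to 25768060 per library) were fitted together in edgeR 4.0.16 (R 4.3.3), with filterByExpr, TMM scaling, 1 mean per label and time, and its quasi-likelihood test. P-values were adjusted by Benjamini-Hochberg over 17715 genes, with a threshold of 0.05. The size of the log2 change over the root of the F statistic gave the SE. A simulation of the NC 4 h against 0 h comparison held 17715 genes. Of 50 genes changed at each of 1.5-, 2-, 4- and 8-fold, 72%, 96%, 100% and 100% were recovered. Of its unchanged genes 0.12% were called. In the real comparison 51.5% of tested genes passed, far more than were changed in the simulation. How these shares hold with so many changed genes was not tested. Groups were taken from the sample titles. Replicates differed by more than counting noise (chi-square per degree of freedom 5.30 at 4 h and 3.90 at 0 h). Alternatives were DESeq2 1.42.0, other scalings, no filter, only the groups compared, a replicate block, leaving out each library, and limma 3.58.1 on the molecule scale.

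KHSRP, MYC, FOS and MCL1 were named in every case, with the 12 largest rises and falls among genes past the threshold, with at least 10 CPM in the higher group and no overlap between libraries, and up to 4 members per list past the threshold with the largest change. Other list members are given by their values. Some genes that this rule names are not reported here. Members and lists were chosen with earlier results of these data known. Of the 43682 gene names 42335 were current, 416 were updated and 931 had no match in the gene table. Promoters came from RefSeq, with 8111 matched among 10012 genes of at least 10 CPM.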

Additional observations from a re-analysis of the deposited data

Results flagged for a closer look

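For 26 of the named genes the change from 0 h to 4 h under the NC label differed from that under the KO label in edgeR's test of the difference. Among the rises, the NC change minus the KO change on the log2 scale was 5.96 for FOS, 5.24 for DUSP1, 4.87 for NUAK2, 4.64 for CCN1, 4.51 for EDN1, 4.26 for BAMBI and 4.07 for CCN2. It was 3.95 for SGK1, 3.42 for MYC, 3.39 for CSRNP1, 3.30 for HPS6, 2.80 for TENT5B and 0.92 for MCL1. Among the falls it was -1.67 for LOC110262331, -1.36 for LOC110467533, -1.17 for LIME1, -1.16 for CCDC78, -1.11 for PGGHG and -1.02 for HNRNPA1P10. It was -0.98 for LOC100288162, -0.96 for GIPR, -0.89 for both AMH and CPNE7, -0.82 for BIRC7 and -0.31 for KHSRP. RN7SK had a fitted difference of -9.07, which is no measure of size because it had no counts in either KO 0 h library.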

How the results depend on the processing

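Against 0 h, the counts of higher and lower genes were 9857 and 204 with libraries scaled to ribosomal protein genes, and lower genes numbered 1250 on the deposited molecule scale. For genes higher or lower than at each other NC time, ribosomal protein scaling gave 6180 and 40, and the molecule scale gave 9 lower. The NC change was above the KO change for 5121 genes with ribosomal protein scaling and 8798 on the molecule scale. It was below the KO change for 3477 genes without a filter, 2860 with DESeq2 size factors, 2963 with the DESeq2 Wald test, 3833 with only the groups compared, 293 with ribosomal protein scaling and 22 on the molecule scale. The cause of these shifts was not tested. Leaving out 1 library at a time gave 4196 to 4380 higher and 3844 to 3944 lower genes, 2158 to 2661 and 1924 to 2434 against each other NC time, and 2432 to 2616 above and 1543 to 1736 below the KO change. With the replicate number as a block these counts were 4784 and 4295, 2717 and 2443, and 2871 and 1878. The labels give no shared source for equal numbers, and deviations of same-numbered libraries had a correlation of -0.01 over genes. Of the results of 123 named genes under these alternatives, 1424 kept direction and call, 28 kept direction but not the call, and 3 did not keep direction. KHSRP was higher with ribosomal protein scaling (0.38). On the molecule scale it stood at 0.053, which did not pass in limma's test (adjusted p = 0.658). CXCL1 ran from -6.11 to 0 as libraries were left out, the latter, no change, without 0 h replicate 2. With 2 libraries per group, 1.5-fold changes were only partly recovered in the simulation (72%), which held far fewer changed genes than the real comparison.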

Other observations

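Genes with ZNF symbols on chromosome 19, a group picked out after values had been seen, were mostly higher at 4 h. The group was taken by symbol alone, so it also holds antisense, divergent and pseudogene entries such as ZNF433-AS1, ZNF567-DT and ZNF702P. Many of them encode KRAB zinc finger repressors. Of 229 tested genes with ZNF symbols on that chromosome 143 were higher and 4 lower, with a median log2 change of 1.18. Over all tested genes 27.1% were higher and 24.4% lower, with a median of 0. Genes that passed the filter on low counts only through the 4 h libraries had to be higher, so these counts are a description. ZNF274, a KRAB zinc finger protein, had a mean of 2.58 CPM at 0 h and 27.3 CPM at 4 h (3.40). The lower ones were ZNF358, ZNF428, ZNF460 and the antisense entry ZNF529-AS1, with changes of -0.73, -0.83, -1.46 and -1.04.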
